A study of Chlamydomonas reinhardtii with 3 samples.

Results

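The LHCA genes encode the light-harvesting proteins of photosystem I, and their cytosine methylation was compared between wild type cells and a cmd1 knockout of the green alga Chlamydomonas reinhardtii. The 9 genes, LHCA1 to LHCA9, were taken by locus identifier from a methylation table of 17527 gene entries, of which 17326 have a level in both genotypes. All 9 have a level. The table and the reference gene table hold no symbols for these loci, so the names rest on the published nomenclature of the species and could not be checked in the data.

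All libraries were made from genomic DNA of strain CC125, with 1 library of genotype WT and 2 of genotype cmd1 KO, in which the TET homolog CMD1 is the knocked-out gene. Both genotypes were grown in acetate medium at 25 °C under 20 μmol photons per square metre and second, then moved to a high salt medium under 300 μE, so all libraries come from cells exposed to high light. Methylation was read by whole-genome bisulfite sequencing, in which an unmethylated cytosine is converted and read as thymine while a methylated one is kept. The sources used here do not say how the knockout was made or whether its 2 libraries came from 1 clone.

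In green algae and plants, photosystem I is surrounded by antenna proteins that bind chlorophyll and carotenoids and pass absorbed light energy to the reaction centre. In Chlamydomonas these proteins form an inner and an outer belt on one side of the core, and a separate pair on another side. LHCA1 lies in both belts, LHCA8, LHCA7 and LHCA3 complete the inner belt, LHCA4, LHCA6 and LHCA5 complete the outer belt, and LHCA2 and LHCA9 form the separate pair. The genes are in the nucleus, and their proteins are imported into the chloroplast. Cytosine methylation is sparse in most genes of this alga.

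The 9 LHCA genes were slightly methylated in wild type, and each had a higher deposited level in cmd1 KO. Wild type levels ran from 0.70% to 1.46%, with a median of 1.11% beside 1.05% over all genes. Levels in cmd1 KO ran from 4.77% to 10.4%, with a median of 5.66% against 5.89% over all genes. The median difference was 4.78 percentage points, and over all genes it was 4.73 points. A higher level in cmd1 KO was the rule in the whole table, where it was found in 99.1% of genes and a lower level in 0.929%, so the count of 9 of 9 is that of the background. No LHCA gene differed by 10 points or more, a size reached upwards by 3.5% of genes and downwards by 0.0923%. LHCA3, LHCA5 and LHCA9 were higher by at least 5 points, which was true of 41.7% of genes, and none by 20 points, which 0.404% of genes reached.

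Both cmd1 KO libraries share 1 deposited value per gene and wild type has 1 library, so no difference here has a spread between replicates or a test of the genotypes. Levels are means over the sites listed for a gene, and the numbers of reads behind them are unknown. No bisulfite conversion rate was used here, and an unmethylated cytosine left unconverted would be read as methylated. The part of such cytosines in these low levels, and in the order of the wild type levels, was not tested. The listed sites were fewer in cmd1 KO, with a median of 26 per LHCA gene against 95 in wild type, and 26 against 82 over all genes. In all 9 LHCA genes, the wild type level lay below the least mean that distinct levels in steps of 0.1% could give, so their wild type lists held repeated levels. This held for 91.3% of all genes. In cmd1 KO no LHCA gene lay below that least mean, nor did any other gene. If equal levels were listed once in cmd1 KO only, the many sites at 0 would count once there and many times in wild type, which raises a cmd1 KO mean without any change in the DNA. The part of this listing in each difference was not tested, and every difference below carries that limit.

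**Figure D1:**
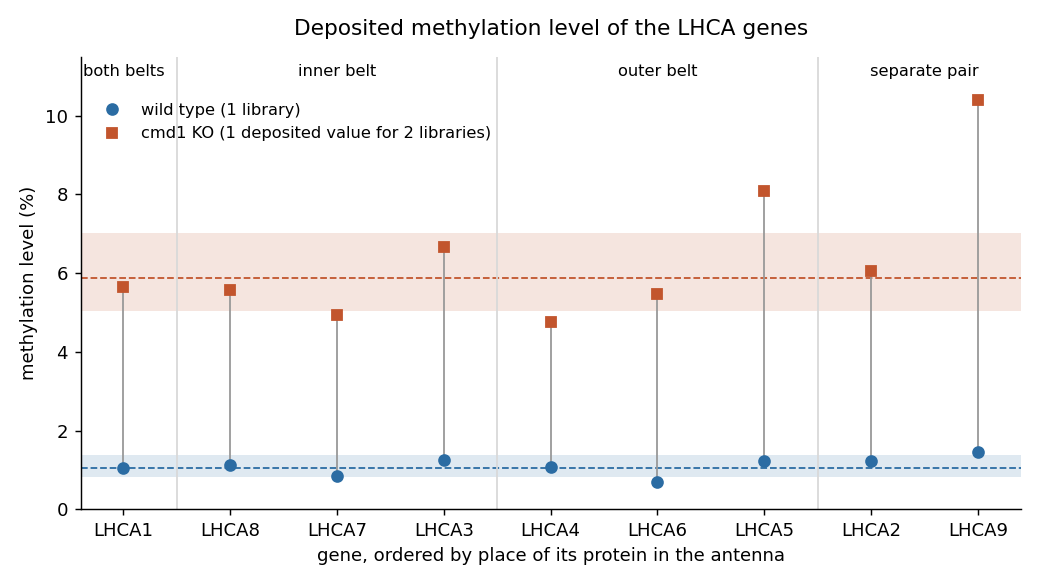
Methylation level in percent (y axis) of the 9 LHCA genes (x axis), with circles for wild type and squares for the cmd1 KO value. Dashed lines are the medians over all genes, 1.05% and 5.89%, and shaded bands are the quartiles. The wild type circles lie between 0.70% and 1.46%, and in cmd1 KO LHCA9 at 10.4% and LHCA5 at 8.10% stand above the band.

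LHCA1, the subunit found in both belts, stood close to the middle of all genes. Its 112 wild type sites averaged 1.04%, and its 32 cmd1 KO sites averaged 5.66%. The difference was 4.62 points, larger than in 46.7% of genes. LHCA1 (Cre06.g283050) is on chromosome 6, as are LHCA8 and LHCA6.

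The other inner belt genes spanned a narrow range. In LHCA8 (Cre06.g272650), 105 wild type sites averaged 1.11% and 31 cmd1 KO sites 5.58%, which is 4.46 points higher. In LHCA7 (Cre16.g687900), 74 and 24 sites averaged 0.84% and 4.93%, which is 4.09 points higher. LHCA3 (Cre11.g467573), which occupies the end of the inner belt, averaged 1.26% in wild type (68 sites) and 6.67% in cmd1 KO (22 sites), which is 5.41 points higher. These values were larger than in 41.7%, 29.8% and 68.4% of genes, so the inner belt genes lay on both sides of the genome-wide median. With LHCA1, the 4 inner belt genes had a median difference of 4.54 points.

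The outer belt held both the smallest difference and the second largest of the family. In LHCA4 (Cre10.g452050), 42 wild type sites averaged 1.09% and only 9 cmd1 KO sites 4.77%. The difference of 3.68 points was larger than in 18.2% of genes, and its 9 cmd1 KO sites were fewer than in 95.2% of genes. LHCA5 (Cre10.g425900), on the same chromosome 10 with 555 gene entries between them, averaged 1.21% in wild type (95 sites) and 8.10% in cmd1 KO (26 sites). Its difference of 6.89 points was larger than in 88.3% of genes. LHCA6 (Cre06.g278213) had the lowest wild type level of the family, 0.70% (106 sites), and a cmd1 KO level of 5.48% (19 sites). The difference of 4.78 points was near the genome-wide median, while the ratio of the levels, 7.83, was the highest of the 9 genes. The family ranged in that ratio from 4.39 in LHCA4 to 7.83 in LHCA6, around a median of 5.46 that lay near the 5.52 of all genes with a wild type level above 0.

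The separate pair was unlike within itself. LHCA2 (Cre12.g508750), with 128 wild type sites the most of the family, averaged 1.23% in wild type and 6.05% in cmd1 KO (31 sites). Its difference of 4.82 points was larger than in 52.9% of genes. LHCA9 (Cre07.g344950) had the highest level of the family in each genotype, 1.46% in wild type (67 sites) and 10.4% in cmd1 KO (38 sites). Its difference of 8.93 points was larger than in 95.2% of genes. It was the one member outside the central 90% of all differences, which lay between 2.87 and 8.82 points. LHCA9 also had the most cmd1 KO sites of the family, and its cmd1 KO site number relative to wild type, 0.57, was larger than in 92.1% of genes, against 0.18 to 0.32 in the other members. Between this ratio and the difference, Spearman's rho was 0.07 over all genes and 0.27 over the 9 LHCA genes. Between the cmd1 KO site number and the cmd1 KO level it was 0.18 over all genes. These values only describe genes that share their libraries. The part of the site numbers in the level of LHCA9 was not tested.

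As ratios, the 9 genes were spread about equally in both genotypes. The highest wild type level was 2.09 times the lowest, and the highest cmd1 KO level was 2.18 times the lowest. In points, with levels several times higher in cmd1 KO, the ranges were 0.76 and 5.62 points. In wild type, 7 of the 9 genes lay between the quartiles of all genes, 0.82% and 1.37%, with LHCA6 below and LHCA9 above. In cmd1 KO 5 lay between the quartiles of 5.03% and 7.03%, with LHCA4 and LHCA7 below and LHCA5 and LHCA9 above. From the lowest to the highest, the cmd1 KO order was LHCA4, LHCA7, LHCA6, LHCA8, LHCA1, LHCA2, LHCA3, LHCA5 and LHCA9. Since there is no replicate spread, neighbours in this order can be read only against the weight of single sites and the listing of sites. Adding 1 site at 0 to the list would lower these levels by 0.17 to 0.48 points. The steps from LHCA4 to LHCA7, from LHCA6 to LHCA8 and from LHCA8 to LHCA1, of 0.16, 0.10 and 0.08 points, were smaller than the shift of the upper gene. The steps from LHCA3 to LHCA5 and from LHCA5 to LHCA9 were 1.43 and 2.29 points. The order also changes if sites at 0 are added to each cmd1 KO list up to the wild type site number. LHCA3 and LHCA5 then stand at 2.16% and 2.22%, LHCA6 is the lowest at 0.98%, and LHCA9 is still the highest at 5.89%. Genes with a higher wild type level tended to have a higher cmd1 KO level (Spearman's rho 0.80 over the 9 genes, 0.43 over all genes). The genes share their libraries, so these are descriptions only.

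**Figure D2:**
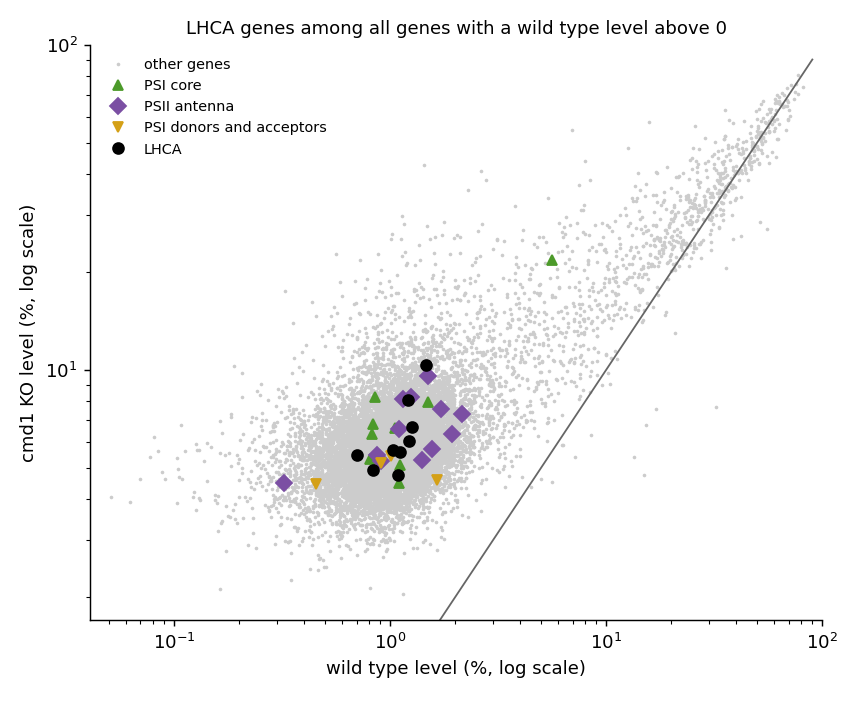
Level in cmd1 KO (y axis, percent, log scale) against level in wild type (x axis, percent, log scale) for each gene with a wild type level above 0, with the LHCA genes in black and 3 other photosynthesis lists in colour. The line marks equal levels. The LHCA genes lie inside the dense cloud of slightly methylated genes, above the line, with LHCA9 at its upper edge.

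Because a level times its number of sites gives the summed methylation of the listed sites, the levels can be read as equivalents of fully methylated sites. In wild type the sums ran from 0.456 in LHCA4 to 1.57 in LHCA2. At most 1 listed site could thus be fully methylated in LHCA1, LHCA2, LHCA5 and LHCA8, and none in the other 5 genes, a state shared by 58.7% of all genes. No LHCA gene could hold more than 3 wild type sites at 50% or above. A sum that allows at most 1 fully methylated site was found in 91.9% of all genes.

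In cmd1 KO the sums were higher than in wild type in 8 of the 9 LHCA genes and in 92.9% of all genes. LHCA4 had a sum of 0.429 in cmd1 KO against 0.456 in wild type, so its higher mean came with a slightly lower sum over fewer listed sites. In LHCA2 the sums were 1.88 and 1.57, and in LHCA6 they were 1.04 and 0.742. LHCA1, LHCA3, LHCA7 and LHCA8 gained between 0.559 and 0.651 site equivalents, near the gain of 0.593 that was the median of all genes. LHCA5 had sums of 2.11 and 1.15, a gain of 0.952. LHCA9 had sums of 3.95 in cmd1 KO and 0.979 in wild type, and its gain of 2.97 was larger than in 94.5% of genes. Repeated cmd1 KO levels, if listed once, would make each of these cmd1 KO sums too low.

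The cmd1 KO level of LHCA9 lay 4.73 points above the family median, which over its 38 sites is equivalent to 1.80 fully methylated sites. At most 3 of its listed cmd1 KO sites could be fully methylated, against at most 2 in each other member and in 89.6% of all genes. If 3 were, the mean of the others would be 2.71%. If 1 were, the mean of the others would be 7.97%, and the same removal in LHCA5 would leave 4.42%. The levels of single sites are not in the table, so it cannot be told whether few sites or many carried the value.

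**Figure D3:**
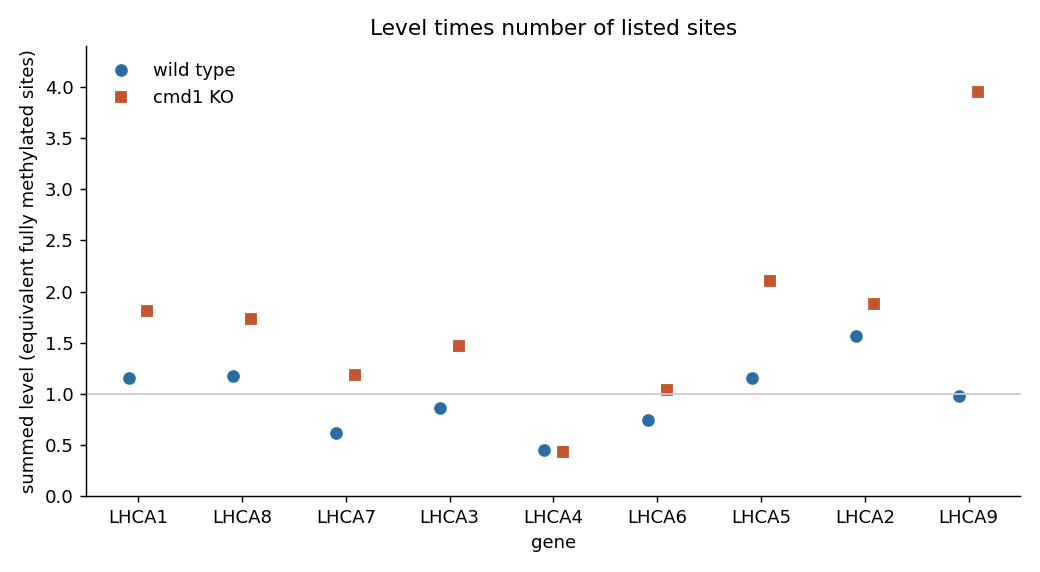
Summed level of the listed sites, in equivalents of fully methylated sites (y axis), for each LHCA gene (x axis), with circles for wild type and squares for cmd1 KO. The horizontal line marks 1 site. LHCA9 rises from 0.979 to 3.95, and the 2 points of LHCA4 nearly coincide.

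The LHCA genes were next compared with the genes beside them. For each LHCA gene, the 2 gene entries before it and the 2 after it were taken in the order of the reference assembly Chlamydomonas_reinhardtii_v5.5, which gives 36 flanking genes. None of them is in the photosynthesis lists used here. Their median levels were 0.89% (wild type) and 5.65% (cmd1 KO), and all 36 were higher in cmd1 KO. Their differences ran from 2.95 to 11.1 points, with a median of 4.60 points, close to the 4.78 of the LHCA genes.

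LHCA9 exceeded each of its 4 flanking genes, whose differences ran from 3.84 to 6.41 points. The adjoining loci stood at 4.67% and 5.15% in cmd1 KO, below the median of all genes. LHCA4 lay below each of its 4 flanking genes, which ran from 3.72 to 5.10 points, the nearest of them only 0.04 points above it. The other 7 members lay among their neighbours. LHCA5 had a neighbour with a larger difference, 7.37 points, while its other flanking genes ran from 4.60 to 5.65 points. LHCA7, at 4.09 points, lay beside a gene at 8.21 points. The one flanking gene past 10 points was Cre06.g283150, the second entry after LHCA1, at 1.30% in wild type (110 sites) and 12.4% in cmd1 KO (28 sites). The entry between it and LHCA1 stood at 4.49% in cmd1 KO.

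**Figure D4:**
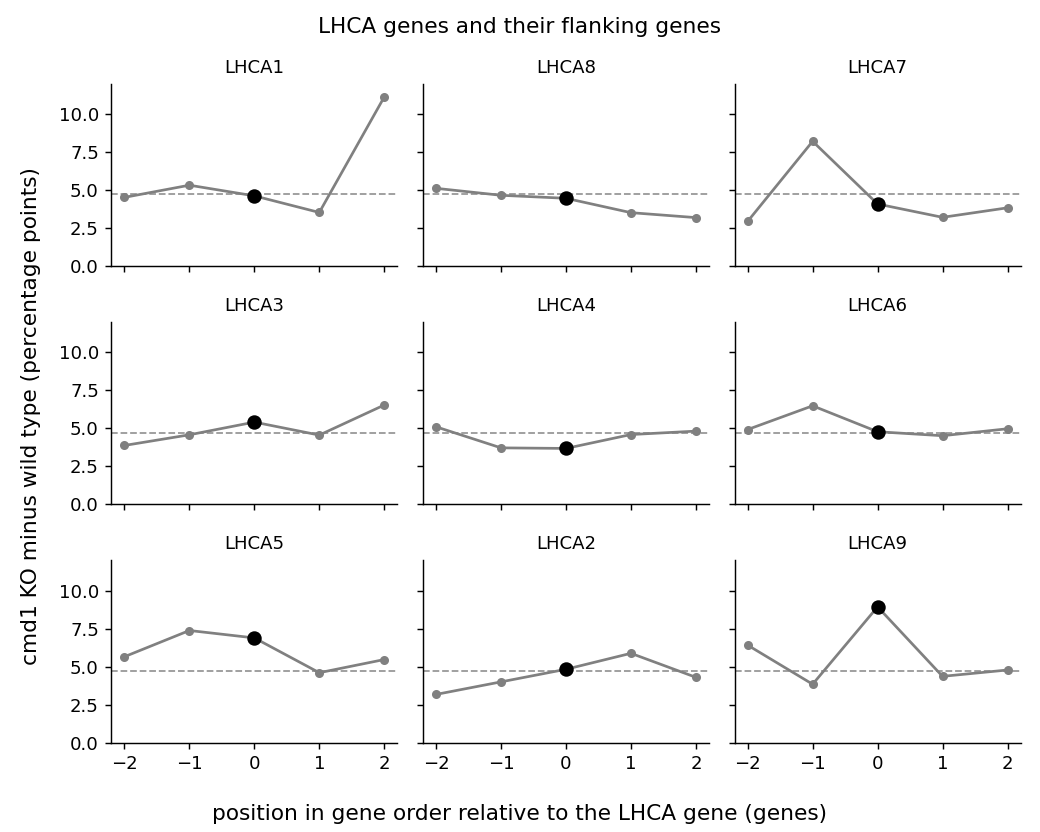
Difference between cmd1 KO and wild type in percentage points (y axis) for each LHCA gene (large point) and the 2 gene entries on either side in gene order (x axis). The dashed line is the median of all genes, 4.73 points. LHCA9 at 8.93 points stands above its 4 neighbours, and next to LHCA1 the second entry after it stands at 11.1 points.

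The other nuclear genes of photosystem I and the antenna of photosystem II gave a frame for these values. The list of 9 core subunits of photosystem I (PSAD to PSAO) had median levels of 1.06% (wild type) and 6.64% (cmd1 KO), and a median difference of 5.58 points. All 9 were higher in cmd1 KO and 6 of them by at least 5 points, beside 41.7% of all genes. PSAD, which forms part of the docking site of ferredoxin, averaged 5.60% in wild type (110 sites) and 21.8% in cmd1 KO (65 sites). Its difference of 16.2 points was the one past 10 points in the 4 lists. The 12 genes of the photosystem II antenna (LHCBM1 to LHCBM9, LHCB4, LHCB5 and LHCB7) had medians of 1.33% and 6.47% and a median difference of 4.90 points, with 6 genes at 5 points or more beside the same 41.7%. The 4 genes of the donor and acceptor sides of photosystem I (PCY1, CYC6, PETF and FNR1) had medians of 0.96% and 4.88%. Their median difference was 4.14 points, with none at 5 points. The ranges of the lists overlapped, from 3.68 to 8.93 points in the LHCA genes, from 3.86 to 8.06 points in the photosystem II antenna and from 3.40 to 16.2 points in the core subunits. No test of a difference between the lists was made.

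By levels in both genotypes, the gene of these lists most like LHCA9 was LHCBM1, which encodes a major trimeric antenna protein of photosystem II. LHCBM1 averaged 1.50% in wild type (55 sites) and 9.56% in cmd1 KO (34 sites), with a distance of 0.13 on the log2 scale over the 2 values. PSAH, a core subunit beside which the mobile antenna of photosystem II can dock, was next, at 1.50% (56 sites) and 7.96% (27 sites). Its distance was 0.39. Like LHCA9, both genes had many cmd1 KO sites relative to wild type. This site ratio was 0.62 in LHCBM1 and 0.48 in PSAH, larger than in 93.2% and 88.3% of genes. The part of the site numbers in this likeness was not tested. Most like LHCA4 by level were PSAK at 1.10% and 4.49% (104 and 52 sites) and PSAN at 1.12% and 5.10% (59 and 22 sites). Their distances were 0.09 and 0.11. The likeness did not extend to site numbers, which were 42 and 9 in LHCA4. The cmd1 KO sum minus the wild type sum was -0.027 site equivalents in LHCA4, 1.195 in PSAK and 0.464 in PSAN. The comparison covered 25 genes and 2 values for each, so many genes outside the lists can be as near.

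**Figure D5:**
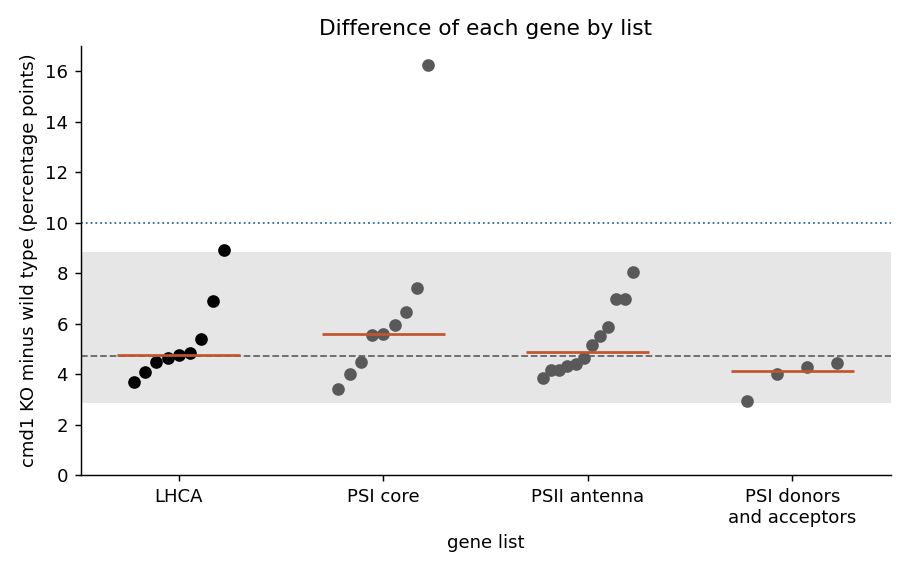
Difference between cmd1 KO and wild type in percentage points (y axis) for each gene of the 4 lists (x axis), with the list median as a short line. The dashed line is the median of all genes, the shaded band their central 90% (2.87 to 8.82 points), and the dotted line marks 10 points. PSAD at 16.2 points is the one gene above the dotted line, and LHCA9 lies just above the band.

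On chromosome 6, LHCA1 lies near genes of the photosystem II antenna, with 17 gene entries between it and LHCBM4 and 46 between it and LHCBM6. LHCBM4 stood at 0.90% in wild type and 5.24% in cmd1 KO, a difference of 4.34 points close to the 4.62 of LHCA1. LHCBM9 and LHCBM8, which are adjacent, had differences of 4.15 and 6.98 points. The LHCBM genes are known as close copies of each other, and if reads were shared between copies their separate levels would be uncertain, which was not tested. LHCA8 and LHCA6 lie farther off on this chromosome, with 428 and 198 gene entries between each and LHCA1. The 3 LHCA genes of chromosome 6 had differences within 0.32 points of each other, while LHCA4 and LHCA5 on chromosome 10 differed by 3.20 points.

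The authors' deposited table gives an unadjusted p, which in all 9 LHCA genes stayed below 0.05 after Benjamini-Hochberg adjustment here over all 17326 genes. The p of the authors' deposited table, as adjusted here, ran from 2.77e-14 in LHCA1 to 1.88e-05 in LHCA4. The same was true of 97.6% of genes, which were higher in cmd1 KO at that threshold. The p compares lists of sites of these libraries, by a test that the sources used here do not name, and it is not a test between genotypes. For LHCA9, with the largest difference, the p of the authors' deposited table was 5.75e-11, or 1.12e-10 as adjusted here. This was larger than that of 6 other members, each of which had more wild type sites. LHCA7 also had more wild type sites than LHCA9, 74 against 67, but a larger adjusted p.

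How much of the higher cmd1 KO level remains depends on the number of sites it is divided by. When each gene's cmd1 KO sum was divided by the wild type site number, 8 of the 9 genes stayed above wild type, by 0.24 to 4.43 points, as did 92.1% of all genes. LHCA4 then lay slightly below wild type, at 1.02% against 1.09%. When it was divided by 1.52 times the wild type site number, the median site ratio among 150 genes with a wild type level of at least 40%, 5 of the 9 stayed above, against 62.9% of all genes. These were LHCA9 by 2.41 points, LHCA5 by 0.24, LHCA7 by 0.21, LHCA3 by 0.16 and LHCA1 by 0.03 points. Both divisions take missing cmd1 KO sites as 0 and can only lower the level or leave it unchanged. A gene with more cmd1 KO sites than the denominator kept its own site number, which applied to no LHCA gene. LHCA9 had the largest difference of the family under the deposited and both of these denominators.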

How the data were processed

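Whole-genome bisulfite libraries of 1 WT and 2 cmd1 KO samples were analysed from 1 deposited table. The tools named in the submitters' processing notes are BSMAP, Trimmomatic 0.36 and FastQC 0.11.5. The sources used here give no genome build, coverage minimum, cytosine context or region assigned to each gene. The deposited methylation level is a fraction per gene, printed as percent. The deposited p-value is the authors', and the site numbers, per the file headers, are not read counts, so depth and counting intervals are unknown. The 201 entries without a level were left out.

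From these values, differences, sums (level times sites) and percentiles over all genes were computed with Python 3.11.15, pandas 2.3.3 and NumPy 2.4.6, and p was adjusted over 17326 genes. The functions were tested on simulated data. Members and lists were chosen with earlier results of these data known. Named genes are the 9 members, 3 lists of photosynthesis genes from published nomenclature, flanking genes past 10 points, and the 2 listed genes nearest to the members of largest and smallest difference; genes named beyond this rule (the LHCBM genes near LHCA1) were chosen after their values were seen. Of 17527 entries, 17525 matched the reference gene table, used only for gene order.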

Additional observations from a re-analysis of the deposited data

How the results depend on the processing

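No paired analysis was possible because cmd1 KO has 1 deposited value per gene, not 1 per library, and no test of the genotypes was made. No library could be left out for the same reason. The count of 9 LHCA genes higher in cmd1 KO became 8 with the wild type site number as denominator, 5 with 1.52 times that number, 3 after each column was centred on its median, and 7 of 7 with at least 20 sites in both columns. Centring removes the shift common to all genes, and 8112 of 17326 genes then stayed above 0. With the wild type site number 92.1% of all genes stayed above wild type, and with 1.52 times that number 62.9% did. The limit of 20 sites was met by 12134 genes, whose median difference was 4.72 points, and their share above wild type was not computed. Over all genes that share was 99.1%, so 7 of 7 is not particular to the LHCA genes. The median difference of 4.78 points became 0.58 and 0.027 points with these denominators, -0.053 after centring and 4.82 with at least 20 sites. Chosen after seeing the data, 1 more cmd1 KO site at 0 per gene gave 4.51 points, and leaving out LHCA9 gave 4.70. At 5 points 3 genes passed, and at 20 points, as at 10, none did. Centred differences were below 0 in LHCA1 (-0.21), LHCA8 (-0.37), LHCA7 (-0.75), LHCA4 (-1.15), LHCA6 (-0.053) and LHCA2 (-0.0088). With the wild type site number LHCA4 stood at -0.064 points, and with 1.52 times that number LHCA8 stood at -0.032, LHCA4 at -0.41, LHCA6 at -0.054 and LHCA2 at -0.26. The medians of the core subunits and the photosystem II antenna, 5.58 and 4.90 points, became 0.75 and 0.066 after centring and 1.21 and 0.77 with the wild type site number. These changes follow from the construction of the alternatives. The depth in reads is unknown, and LHCA4 rests on 9 cmd1 KO sites.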
